A study of Homo sapiens with 10 samples.

Results

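The starts of long non-coding RNA (lncRNA) genes were examined in a map of nucleosome positions from human induced pluripotent stem cells (hiPSCs). A start was the 5′ end of an autosomal gene typed lncRNA in GENCODE on GRCh38, at least 5000 bp from the start of any protein-coding transcript. Of 18390 autosomal lncRNA genes, 13204 met this rule, among 59578 autosomal gene starts of all types. The rule used annotation only and no measured value.

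The cells were undifferentiated and all came from 1 hiPSC line, PB010.5, with a FUCCI reporter of the cell cycle. Micrococcal nuclease (MNase), which cuts linker DNA, was applied for 5 min in amounts of 10, 6, 3, 1 or 0.5 U. Each of the 5 digestions gave 1 library, and each library was read with 150-bp and with 50-bp paired ends, which gives 10 samples. The deposited list pools libraries and holds no value per MNase concentration, so the concentrations were not compared here, no difference has a replicate check, and no p-value is given. According to the methods, the 50-bp runs did not yield nucleosome profiles, and which runs went into the pool is not given. The list holds 12921589 positions of 140 bp, each with a score, which is a signal whose scaling is not stated. The reads behind a score are unknown. A list of nucleosomes holds no RNA, so neither the identity of the cells nor the transcription of any lncRNA could be checked. Spreads are given as the SD over the 22 autosomes, which describes how even a value was across the genome and is not an experimental error. It is not the uncertainty of a mean over autosomes either, and tends to be larger where a class has few starts.

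Long non-coding RNAs are transcripts without an evident protein product, and many are spliced and capped like messenger RNAs. Active promoters are known to carry a nucleosome-depleted region at the transcription start site (TSS), bordered by a +1 nucleosome downstream and a −1 nucleosome upstream. CpG islands, where CpG dinucleotides are kept at a high density, are a common promoter type of widely expressed genes, whereas many lncRNAs start in CpG-poor DNA.

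The sequence of 3 starts shows CpG-rich promoters beside the nucleosomes called on them. Each window runs 5′ to 3′ in the direction of transcription, from 150 bases before the annotated start to its 150th transcribed base, and was read from the GRCh38 reference. Capitals mark bases under a called nucleosome position, whatever its score. DANCR (plus strand, chr4:52712175-52712474), a transcript that restrains differentiation, and MALAT1 (plus strand, chr11:65497490-65497789), an abundant RNA of nuclear speckles, are widely expressed and start in CpG-rich DNA. CATIP-AS1 (minus strand, chr2:218367736-218368035), an antisense gene, had the highest score of the named members at the nearest position downstream of its start.

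DANCR: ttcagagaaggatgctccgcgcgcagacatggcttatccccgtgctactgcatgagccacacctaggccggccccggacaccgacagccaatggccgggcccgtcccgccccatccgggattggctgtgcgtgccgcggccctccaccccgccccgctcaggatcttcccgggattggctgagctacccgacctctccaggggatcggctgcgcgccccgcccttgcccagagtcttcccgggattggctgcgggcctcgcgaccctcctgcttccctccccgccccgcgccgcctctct
MALAT1: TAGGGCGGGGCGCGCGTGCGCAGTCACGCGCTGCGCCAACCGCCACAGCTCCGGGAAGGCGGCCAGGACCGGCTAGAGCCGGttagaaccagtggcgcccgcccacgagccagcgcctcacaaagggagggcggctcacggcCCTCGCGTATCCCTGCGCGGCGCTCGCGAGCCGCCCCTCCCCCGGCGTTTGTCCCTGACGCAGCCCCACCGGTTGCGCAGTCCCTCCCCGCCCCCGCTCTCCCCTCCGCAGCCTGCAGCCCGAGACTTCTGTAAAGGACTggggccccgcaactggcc
CATIP-AS1: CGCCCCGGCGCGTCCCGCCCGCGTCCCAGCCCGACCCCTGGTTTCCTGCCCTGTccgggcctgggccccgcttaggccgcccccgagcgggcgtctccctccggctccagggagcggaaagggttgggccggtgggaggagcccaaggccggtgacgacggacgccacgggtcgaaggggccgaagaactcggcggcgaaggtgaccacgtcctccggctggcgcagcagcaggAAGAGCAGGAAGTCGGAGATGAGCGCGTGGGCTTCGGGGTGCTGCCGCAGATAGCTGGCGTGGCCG

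The DANCR window, with 30 CpG dinucleotides, held no covered base. MALAT1, with 37 CpGs, was covered over 222 bases. The positions over them were low-scoring, with 12.3 downstream and 7.40 upstream of the start, under the median of 14.8 over all positions. CATIP-AS1 also held 37 CpGs and had 54 covered bases before its start and 66 after it. Among these 3 windows the covered bases thus ranged from 0 to 222 of 300.

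Within 1500 bp of the 13204 lncRNA starts there were 186086 positions counted per start, or 14.1 per start, from 179452 distinct positions, which are 1.44% of all autosomal positions. Another gene start lay within 1500 bp of 1775 of the lncRNA starts (13.4%). No position at all lay within 1500 bp of 561 starts, nor within that distance of 437 of the 19111 protein-coding starts. The number per start had a median of 15, with quartiles of 13 and 17 and a highest value of 22. Starts without positions lay mostly where the surrounding sequence was not unique, which here includes gaps in the reference. Among the 561, only 41 (7.31%) had at least 90% of the surrounding 100-base windows occurring once in the reference, against 11847 of the 12134 starts (97.6%) with 8 or more positions. Absent nucleosomes, reads that could not be placed and blacklisted regions that the authors took out cannot be told apart at such starts.

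On average the lncRNA starts carried a weak nucleosome pattern. Midpoints were counted by distance from the start, and their density was expressed relative to that found 1000 to 1500 bp away, so that 1 is the density of the surroundings. The 200 bp upstream of the start were not depleted: the log2 density was 0.04 ± 0.05 (SD over 22 autosomes) and lay below the surroundings on 7 of 22 autosomes. The highest smoothed density from 0 to 300 bp downstream, taken as the +1 maximum, was 1.13 at 115 bp. Its place varied between autosomes, with a mean of 119.5 bp ± 59.4 (SD). The highest density from 100 to 400 bp upstream, taken as the −1 maximum, was 1.04 at -255 bp and did not exceed 1 by more than its SD of 0.071.

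Downstream of the start the profile, smoothed again to place successive maxima, had further maxima at a nucleosome-like spacing. After 115 bp they lay at 325, 535, 725 and 905 bp, with densities of 1.09, 1.04, 1.06 and 1.04. The steps between them were similar to those at protein-coding starts, whose maxima lay at 135, 335, 525, 715 and 895 bp with densities that fell from 1.46 to 1.04. At lncRNA starts a further small maximum of 1.07 lay at -5 bp, over the start itself. Upstream maxima lay at uneven steps, at -235, -445, -555, -665, -775 and -915 bp, with up to 1.05 at -775 bp. Downstream maxima from 535 bp on were about as high as that. No spread was computed for these maxima, and whether they exceed noise was not tested.

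**Figure D1:**
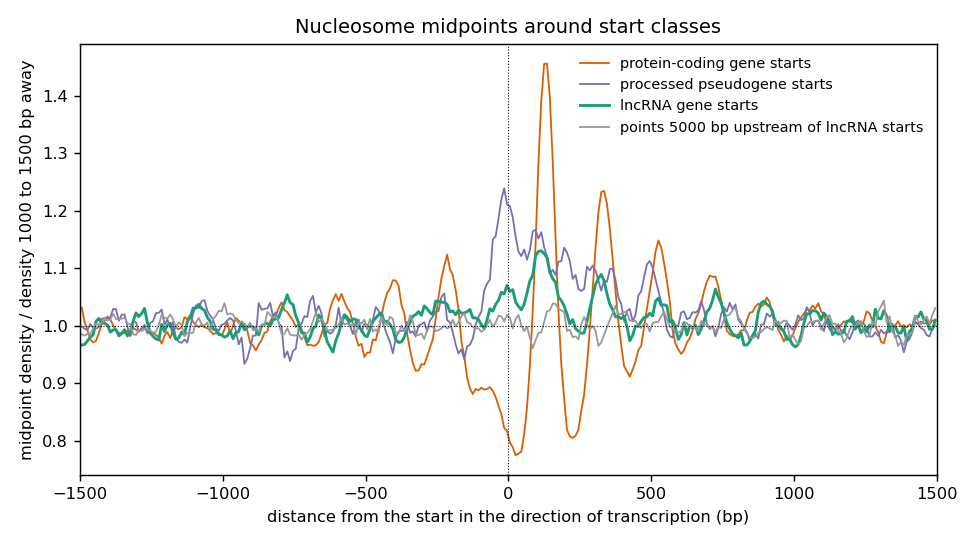
Smoothed midpoint density divided by the density 1000 to 1500 bp away (vertical axis) by distance from the start in bp (horizontal axis), for lncRNA, protein-coding and processed pseudogene starts and for points 5000 bp upstream of the lncRNA starts. The lncRNA line stays near 1 upstream and reaches 1.13 at 115 bp, and the protein-coding line falls to 0.775 at 25 bp downstream of the start and rises to 1.46 at 135 bp.

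To compare classes with fixed windows, the density was averaged over 100 bp centred on the protein-coding +1 maximum (85 to 185 bp downstream, the +1 window) and over 50 bp to either side of the start (the start window). In the +1 window the lncRNA starts had a density of 1.11 ± 0.050 (SD) and protein-coding starts 1.29 ± 0.047, and the lncRNA value was the lower on 22 of 22 autosomes, with a mean difference of -0.171 ± 0.077. In the start window the order turned around. The lncRNA density was 1.05 ± 0.045, the protein-coding density 0.811 ± 0.048, and the lncRNA value was the higher on 22 of 22 autosomes, by 0.241 ± 0.055. Both differences exceeded their spread over the autosomes.

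In the +1 window lncRNA starts differed from points without a start. The +1 window was higher at lncRNA starts than at points 5000 bp upstream of them on 21 of 22 autosomes, by 0.0985 ± 0.060, and than at the 3′ ends of the same genes on 22 of 22, by 0.119 ± 0.068. The ends themselves were depleted in the window over the end, with 0.885 ± 0.044. From the points 5000 bp upstream, lncRNA starts differed by 0.045 ± 0.066 in the start window and by 0.023 ± 0.047 in the 200 bp upstream. Both of these differences were within their spread. Processed pseudogenes, copies of messenger RNAs inserted into the genome, were chosen by the same distance rule and differed from lncRNA starts by -0.0013 ± 0.094 in the +1 window (lncRNA minus pseudogene). Over the start itself the pseudogenes were higher, at 1.19 ± 0.067, and lncRNA starts lay below them on 20 of 22 autosomes.

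The CpG content of the DNA around a start divided the lncRNA starts. Over 500 bp centred on the start, 655 lncRNA starts (4.96%) were CpG-rich (GC of at least 0.55 and an observed over expected CpG ratio of at least 0.75), 10914 (82.7%) were CpG-poor (ratio under 0.48) and 1633 were intermediate. Among protein-coding starts 44.4% were CpG-rich. CpG-rich lncRNA starts had a log2 density of -0.15 ± 0.30 in the 200 bp upstream, a start window of 0.807 ± 0.22 and a +1 maximum of 1.40 at 155 bp. CpG-poor lncRNA starts had 0.06 ± 0.04 upstream, a start window of 1.08 ± 0.061 and a +1 maximum of 1.12 at 115 bp. On 20 of 21 autosomes with enough midpoints in both classes the start window was lower at CpG-rich lncRNA starts, with a difference of -0.276 ± 0.24, and on 16 of 21 their +1 window was higher, by 0.241 ± 0.26. The first difference was slightly larger than its spread over the autosomes and the second was not. The difference in the +1 window was 0.104 ± 0.29 among starts with no other gene start within 3000 bp and 0.161 ± 0.32 with unique windows, where at least 90% of the surrounding 100-base windows occur once.

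Within the CpG-rich and the CpG-poor class the +1 windows of lncRNA and protein-coding starts differed by less than their spread, and in the intermediate class by more. This spread was largest in the CpG-rich class, which has the fewest lncRNA starts. A difference within it therefore does not show that lncRNA and protein-coding starts are alike. Among CpG-rich starts the +1 window was 1.34 at lncRNA and 1.36 at protein-coding starts, with the lncRNA value lower on 11 of 21 autosomes and a difference of -0.019 ± 0.27. The start window was 0.807 at CpG-rich lncRNA starts and 0.678 at CpG-rich protein-coding starts, with the lncRNA value higher on 16 of 21 autosomes by 0.127 ± 0.23, which is within its spread. Among CpG-poor starts the +1 window was lower at lncRNA starts on 15 of 22 autosomes, with a difference of -0.042 ± 0.12, also within its spread. Among intermediate starts the lncRNA +1 window was lower on 19 of 22 autosomes, with a difference of -0.165 ± 0.14, and the start window was higher on 15 of 22, by 0.129 ± 0.19. The smoothed maximum was taller at protein-coding starts in the CpG-rich and CpG-poor classes, with 1.64 against 1.40 in CpG-rich and 1.24 against 1.12 in CpG-poor DNA. With at least 90% unique windows, 469 CpG-rich lncRNA starts were left, and their +1 window was 1.25 ± 0.33 against 1.36 ± 0.057 at 8287 protein-coding starts.

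**Figure D2:**
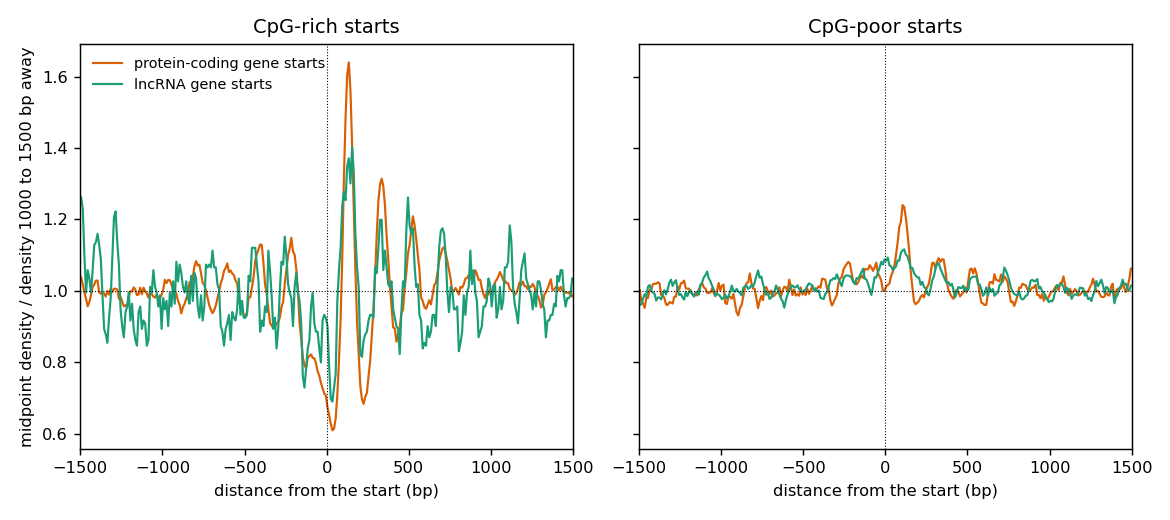
Smoothed midpoint density relative to the density 1000 to 1500 bp away by distance from the start in bp, for CpG-rich starts (left) and CpG-poor starts (right) of lncRNA and protein-coding genes. In CpG-rich DNA both lines dip at the start and rise downstream, to 1.40 and 1.64, and the line of the 655 lncRNA starts is rougher. In CpG-poor DNA neither line dips.

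Positions were missing at a larger share of CpG-rich than of other lncRNA starts. CpG-rich lncRNA starts held 11.6 positions per start, against 14.4 at CpG-poor lncRNA starts and 15.2 at CpG-rich protein-coding starts, and 87 of the 655 (13.3%) had none, against 360 of the CpG-poor ones (3.30%). At least 90% of the windows were unique at 71.6% of CpG-rich lncRNA starts, at 92.9% of CpG-poor lncRNA starts and at 97.8% of CpG-rich protein-coding starts. Restricted to unique surroundings, CpG-rich lncRNA starts held 14.9 positions per start.

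The score rose from the surroundings to the starts. Positions from 0 to 300 bp downstream had a mean score of 18.1 ± 0.974 (SD), those in the 200 bp upstream 17.4 ± 0.946, and those 1000 to 1500 bp away 16.6 ± 0.947. At protein-coding starts the downstream mean was 22.6 ± 1.13 and the distant mean 17.6 ± 0.958. The GC content of the position itself moved with the score: over the 186086 positions around lncRNA starts, which share 1 list and overlap in sequence, Spearman's rho of score and GC was 0.482. GC was 47.8% in the +1 window of lncRNA starts and 43.7% in the surroundings.

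Within classes of similar GC, bounded at 35, 45, 55 and 65%, the score in the +1 window of lncRNA starts was 1.04 to 1.08 times that of the surroundings. GC can still differ between the +1 window and the surroundings within a class, and this was not adjusted for. For positions under 35%, of 55 to 65% and over 65% GC this excess was within the SD of the +1 window. In the start window, positions over 65% GC scored 19.7 against 23.2 in the surroundings, and those of 55 to 65% 21.4 against 21.8. Positions of lower GC scored slightly above the surroundings there. At protein-coding starts the ratio of the +1 window to the surroundings was 1.12 to 1.31. In their start window, positions over 65% GC scored 16.3 against 22.7 in the surroundings, and those of 55 to 65% 19.3 against 21.5. Those of lower GC scored above the surroundings. For positions of 45 to 55% GC the +1 window of lncRNA starts averaged 19.3 ± 0.699 over 2362 positions and the surroundings 18.4 ± 0.522. At protein-coding starts of that GC the means were 22.6 ± 1.37 and 18.2 ± 0.385.

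**Figure D3:**
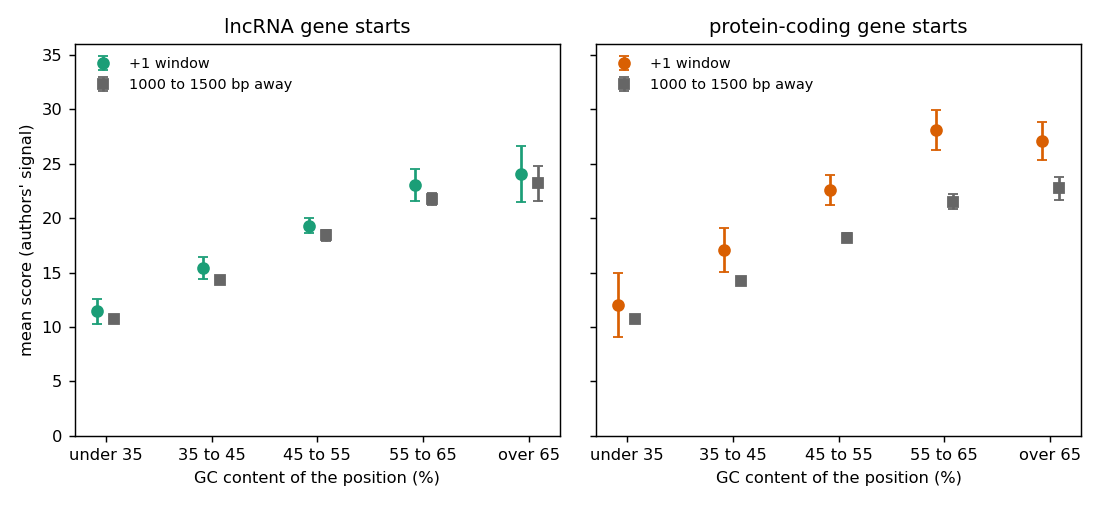
Mean score (the authors' signal, vertical axis from 0) of positions in the +1 window and 1000 to 1500 bp away, by GC content of the position, at lncRNA starts (left) and protein-coding starts (right). Bars are the SD over autosomes. At lncRNA starts the +1 points sit at 1.04 to 1.08 times the distant ones, and at protein-coding starts at 1.12 to 1.31 times.

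The distance across a start was measured from the nearest midpoint upstream to the nearest at or downstream of it. Over 12471 lncRNA starts with both, the median was 200 bp, with quartiles of 160 and 270 bp. A distance of 300 bp or more, called wide, was found at 2635 lncRNA starts (21.1%), below the 23.9% of all autosomal gene starts and the 25.5% of protein-coding starts. The CpG classes differed: 183 of 540 CpG-rich lncRNA starts (33.9%) and 2051 of the CpG-poor ones (19.6%) were wide, against 31.7% and 15.3% of protein-coding starts. At the points 5000 bp upstream of lncRNA starts 27.2% of distances were wide, and at the 3′ ends of the genes 30.3%. With unique surroundings 27.3% of CpG-rich and 17.9% of CpG-poor lncRNA starts were wide. No midpoint lay in the 200 bp upstream of 1866 of 12134 lncRNA starts (15.4%) with at least 8 positions, where all gene starts gave 18.3%. The share was 23.1% at CpG-rich and 14.4% at CpG-poor lncRNA starts. Wide distances and empty upstream regions were thus not more frequent at lncRNA starts as a whole than at gene starts in general. Among lncRNA starts both were more frequent at CpG-rich than at CpG-poor ones. With unique surroundings, the 27.3% of CpG-rich lncRNA starts was close to the 27.2% of the points 5000 bp upstream, which were not restricted in that way. No spread is given for these shares.

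**Figure D4:**
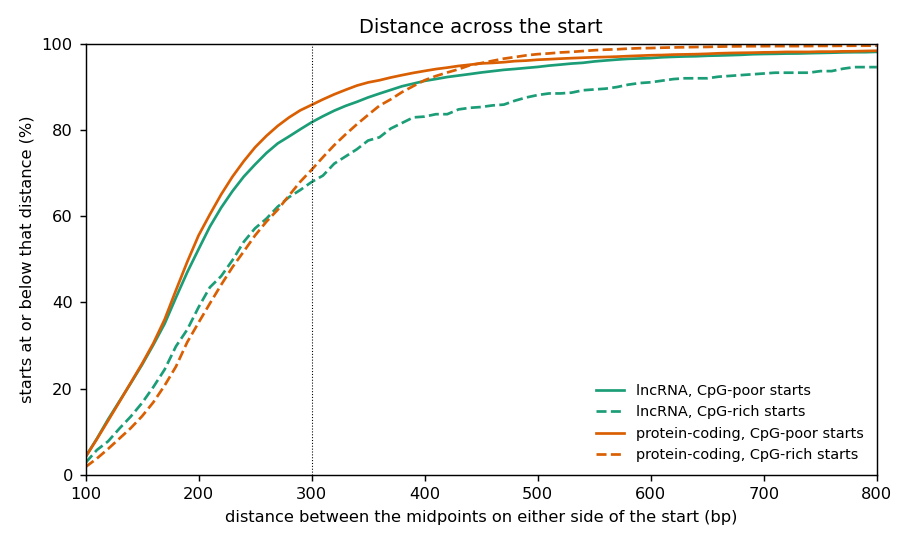
Percent of starts (vertical axis) whose distance across the start is at or below the value on the horizontal axis in bp, for CpG-rich (dashed) and CpG-poor (solid) starts of lncRNA and protein-coding genes. The dotted line marks 300 bp. Both CpG-rich lines lie below both CpG-poor lines up to 350 bp. At 600 bp the CpG-rich protein-coding line, at 99.1%, is above the CpG-poor lines, and the CpG-rich lncRNA line is the lowest, at 91.1%.

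The +1 window was also compared by place and annotation. No ranking against CpG class is made, because that difference, 0.241 ± 0.26, lay within its spread too. Outside every protein-coding gene body lay 9242 of the lncRNA starts, with a +1 window of 1.13 ± 0.049, and 2803 lay inside a body on the opposite strand, with 1.06 ± 0.10. The 1159 starts inside a body on the same strand had 1.06 ± 0.16. Genes named LINC had 1.16 ± 0.099 and those known only by an identifier 1.10 ± 0.047. Genes with 1 transcript had 1.09 ± 0.051 and those with 10 or more 1.15 ± 0.21. Each of these differences was within the larger of the spreads compared. At starts 5 to 10 kb from a protein-coding start the log2 density upstream was -0.02 ± 0.14. At those 200 kb or more away it was 0.13 ± 0.10. Ranges of 1 SD around these values overlapped, and a change with distance was not tested. The mean score of the surroundings was 18.2 at the nearer and 14.4 at the farther starts. At 1357 starts just inside the distance rule, from 5 to 10 kb, the start window was 0.996 and the +1 window 1.08. At lncRNA starts just outside it, from 1 to 5 kb, they were 1.01 and 1.03.

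A TATA-like motif was searched as TATAAA on the sense strand from 40 to 20 bases upstream. It was present at 170 lncRNA starts (1.29%), at 2.89% of protein-coding starts, at 1.62% of all gene starts and at 0.969% of the points 5000 bp upstream. On either strand the share at lncRNA starts was 2.12%. None of the 3 windows printed above held TATAAA in the 150 bases before the start. The 170 lncRNA starts with the motif had a +1 window of 1.07 and a median distance across the start of 210 bp.

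Among lncRNAs known from pluripotent cells, 9 of a list of 11 met the distance rule and all 9 had positions on both sides. Their distances across the start had a median of 255 bp. 4 of the 9 were wide, MIR302CHG (570 bp), LINC00678 (460 bp), LINC00458 (430 bp) and ESRG (390 bp), beside a background of 23.9% of all gene starts. MIR302CHG is the host gene of the miR-302 cluster, which is characteristic of pluripotent cells. The narrow ones were MIAT (255 bp), LINC01108 (210 bp), LINC-ROR (170 bp), LNCPRESS1 (140 bp) and RMST (130 bp), a transcript known as a partner of SOX2. At RMST the nearest positions scored 11.1 and 9.87, and without the positions that scored under the median of all positions its distance was 1445 bp, so that it was no longer narrow. Of the nearest downstream positions in this list, that of LNCPRESS1, 24 bp from its start, had the highest score, 28.4, and the lowest was 7.40 at MIR302CHG and LINC00458. Sequence uniqueness moved with this result. In ESRG 86.0% of the surrounding windows were unique, in LINC00678 88.5% and in LINC00458 83.0%, against 92.7% to 100% in the other 6, MIR302CHG among them with 100%. Only 1 of the 6 starts with at least 90% unique windows was wide.

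At ESRG, which lies inside the body of a protein-coding gene on the opposite strand, the nearest downstream position was centred at 145 bp and scored 12.3, and the nearest upstream one, at -245 bp, scored 9.87. At LINC-ROR, outside protein-coding bodies, a position with a score of 24.7 centred 57 bp downstream reached over the start, and the next one upstream, at -113 bp, had 14.8.

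Among widely expressed lncRNAs 30 of 44 listed genes met the rule, of which 1 is counted but not named. Of 29 with positions on both sides 8 were wide (27.6%, beside 23.9% of all gene starts), and 13 of the 30 were CpG-rich. The widest were SNHG27 (710 bp), DANCR (580 bp) and SNHG29 (500 bp). SNHG genes host small nucleolar RNAs in their introns. SNHG27 had only 55.4% unique windows. DANCR had 100%, and its start lay 69 bp from that of another gene. Its nearest positions were chr4:52712022-52712161 upstream, with a score of 30.9, and chr4:52712602-52712741 downstream, with 9.87. The other wide starts, from 300 to 330 bp, were those of SNHG14, SNHG17, SNHG25, SNHG32 and MIR17HG, the host of the miR-17 cluster. Measured from the canonical transcript start, SNHG14 went from 330 to 170 bp and the imprinted MEG8 from 210 to 340 bp. Without the positions that scored under the median, 22 of 27 named starts of the list were wide, those of MALAT1, NEAT1, NORAD, H19 and KCNQ1OT1 among them. With fewer positions distances lengthen in general, and 58.9% of all lncRNA starts were then wide.

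Most starts of this list were flanked at ordinary distances. MALAT1 had 200 bp, with a score of 12.3 at 62 bp downstream, and NEAT1, the scaffold of paraspeckles, 230 bp with 7.40 at 68 bp and 50.6 at the next position, 168 bp downstream. NORAD, which binds Pumilio proteins, had 230 bp and a score of 33.3 at 176 bp. The imprinted genes H19, MEG3 and KCNQ1OT1 had 200, 180 and 160 bp. Counting only the nearest downstream position of each start, the highest scores of the list were 48.1 at SNHG30 and 39.5 at SNHG15 and SNHG16. CYTOR had no position within 1500 bp, and 55.5% of its windows were unique.

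Lineage-restricted lncRNAs, which mark differentiated tissues or tumours, gave 8 members, and 3 of these were wide (37.5%, beside 23.9% of all gene starts). They were DSCAM-AS1 (455 bp), MYHAS (375 bp), which lies in the myosin heavy chain cluster, and DLX6-AS1 (370 bp) of the developing forebrain. CARMN of smooth muscle had 220 bp, LINC00261 of endoderm 270 bp, BANCR 190 bp, UCA1 170 bp and SAMMSON 140 bp. Without the positions that scored under the median 5 of the 8 were wide, beside 58.9% of all lncRNA starts measured in that way. All 8 had at least 99% unique windows. The share of wide starts was thus 37.5% in the lineage list, 44.4% in the pluripotency list and 27.6% in the widely expressed list, and in lists of 8 to 30 genes a few starts decide such a share.

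**Figure D5:**
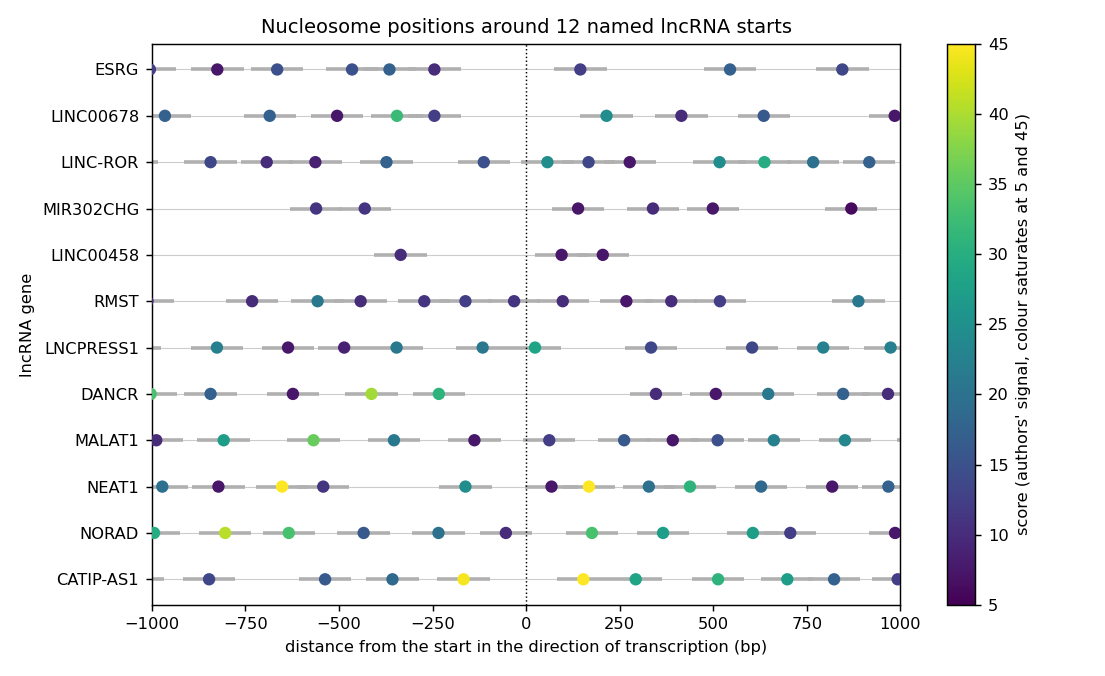
Nucleosome positions within 1000 bp of 12 named lncRNA starts (vertical axis) by distance from the start in the direction of transcription in bp. Grey bars are the 140-bp positions, dots their midpoints, and colour the score. ESRG, LINC00678, MIR302CHG, LINC00458 and DANCR show the widest uncovered stretches over the start, from 390 to 580 bp between midpoints, and LINC-ROR, RMST and LNCPRESS1 have positions at or close to it.

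Where the nearest downstream position lay within 300 bp, its highest scores among lncRNA genes with a symbol were 80.2 at CATIP-AS1, 67.9 at LINC02558, 64.2 at LINC02716, 59.2 at LINC00163 and 58.0 at UPK1A-AS1. These 5 were chosen for the score, which is given as a description. The median over 12569 lncRNA starts was 17.3. At CATIP-AS1 the position lay 153 bp downstream at chr2:218367662-218367801 and the start of another gene lay 228 bp away. All 5 starts had GC contents from 55.8% to 72.2% and at least 99% unique windows.

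The widest distances, chosen likewise, were 1560 bp at LINC00440, 1510 bp at FAM242A, 1495 bp at LINC02994, 1440 bp at HSD17B2-AS1 and 1420 bp at LINC02091. They were not of 1 kind. LINC02994 and HSD17B2-AS1 had 65.1% and 63.7% unique windows. LINC00440, LINC02091 and FAM242A had 99.8%, 99.5% and 93.1%. The GC content was 28.4% at LINC00440 and 65.8% at LINC02091.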

How the data were processed

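MNase-seq was done on 10 samples (5 MNase concentrations, 2 read lengths) of hiPSC chromatin. According to the labels and the study's methods, the authors trimmed reads with Trimmomatic 0.40 and mapped them to GRCh38, and the nucMACC workflow was run after blacklisted regions had been taken out. They deposited 1 pooled list of positions. Its score is a signal, never negative, that the authors scaled in a way not given in the sources used here. The program that called the positions is not given either. No read totals are in the list, so no counting interval is given.

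The list was used without a filter. Of its scores, 99.999845% were whole multiples of 1.23 within 0.01 of a step. On the autosomes 94.4% of midpoints lay on a single 10-bp grid, and the smallest spacing was 100 bp. Distances across a start thus have a floor of 100 bp, and most places are no finer than the grid. Gene starts came from GENCODE release 44, where the methods name a later release. LINC00473, a gene of the lineage list, was not analysed here. Some sequences and the results that rest on them are not reported here. Midpoints (interval start + 70) were binned by 10 bp and scaled to the average density of the flanks, 1000 to 1500 bp away. The +1 and −1 maxima were read after smoothing over 5 bins. To place the successive maxima the profile was smoothed again in the same way, and their densities were read before that repeat. Autosomes with under 20 midpoints in those flanks were left out. Uniqueness is the share of 100-base windows within 1500 bp found once, on either strand, in chromosomes 1 to 22, X and Y.

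Groups are start classes, and no test was made because a pooled list has no replicates. The members, the gene lists and the measures were chosen with earlier results of these data known. Named genes were the members of 3 lists of known lncRNAs, the 5 highest scores of a nearest downstream position within 300 bp and the 5 widest distances with at least 8 positions. Genes of 1 chromosome were counted and not named. Alternatives used other positions, weights, bins, start sites, distances and flanks. The software was pandas 2.3.3, NumPy 2.4.6 and SciPy 1.17.1 under Python 3.11.15, with matplotlib 3.10.9 for plots, and the functions were first tested on simulated positions.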

Additional observations from a re-analysis of the deposited data

How the results depend on the processing

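No paired analysis was possible because 1 pooled list of positions was analysed and it holds no value per sample. The choice of positions moved the lncRNA profile most among the alternatives run. When positions scoring under the median were left out, the log2 density upstream was 0.13, the +1 maximum 1.35 and the −1 maximum 1.13, and with the highest 2% of positions these were 0.53, 2.43 and 1.82. With each position weighted by its score the upstream log2 density was 0.11, the +1 maximum 1.30 and the CpG-rich minus CpG-poor difference in the +1 window 0.530 in place of 0.241. That difference was 0.104 with no other gene start within 3000 bp and 0.161 with unique windows. With members at least 20000 bp from protein-coding starts the −1 maximum lay at -175 bp. The downstream minus distant score was 2.47 with medians in place of the mean difference of 1.45. Without the positions scoring under the median, the median distance across the start was 355 bp and 58.9% of starts were wide. No alternative changed the sign of a value that could take either sign. Counting 0.104 and 0.161, 87 values for the whole classes moved by less than 1 SD over the autosomes. For the CpG class difference in the +1 window that SD was 0.26, so that a fall from 0.241 to 0.104 stayed within it. Among the 87 were all values with at least 90% unique windows, an alternative added after the data were seen. Single starts moved more: of the pluripotency list 1 of 6 starts was wide with unique windows, against 4 of 9, of the lineage list none of 2 starts was wide 20000 bp from protein-coding starts, and without the low-scoring positions 22 of 27 named starts of the widely expressed list were wide, MALAT1 had 615 bp and RMST 1445 bp. From the canonical transcript start SNHG14 had 170 bp and MEG8 340 bp. The alternative that leaves out repeat-masked starts was not run, because the reference used here marks no repeats. The unknown reads behind a score limit any statement on a single position.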
